A study of Mus musculus with 23 samples.

Results

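The genes described here are 8 feedback and direct target genes of canonical WNT signalling, named by symbol: Axin2, Nkd1, Rnf43, Dkk1, Sp5, Lef1, Tcf7 and Tnfrsf19. Of the 45101 probe sets on the Affymetrix mouse genome array, 15 name 1 of these genes and no other, and they cover 7 of the 8 genes. No probe set names Tcf7 alone in the annotation used, and Tcf7 was not analysed here. The probe set of highest mean signal stood for its gene, and all 7 genes passed the filter on dim genes. The remaining probe sets are described after the genes.

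Expression was measured in epiblast-like cells, a culture counterpart of the mouse epiblast just before gastrulation, which were derived with Activin A, bFGF and serum replacement from male C57BL/6 embryonic stem cells kept in 2i medium with LIF. The WT line has both Wnt3 alleles (Wnt3+/+) and the KO line has none (Wnt3-/-), and both carry the BV reporter, in which Blimp1 regulatory elements drive a membrane-bound Venus protein. Cells were collected at 0 h and after 12, 24 and 36 h as floating aggregates in serum replacement medium with LIF. WT aggregates received no cytokine, BMP4 at 500 ng/ml or WNT3A at 50 ng/ml, and KO aggregates received the same or both cytokines together. There is 1 array per line, condition and time, 23 in all. The 3 times therefore stand in for replicates, and the line cannot be told apart from its genotype.

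Canonical WNT ligands bind Frizzled receptors and LRP5/6, which stops the destruction of beta-catenin, and beta-catenin then turns on genes bound by TCF/LEF factors. Several of the genes turned on in this way restrain the pathway again. Axin2 is a scaffold of the complex that destroys beta-catenin, Nkd1 binds Dishevelled, Rnf43 is a ubiquitin ligase that removes Frizzled receptors from the cell surface, and Dkk1 is a secreted inhibitor that binds LRP5/6. Sp5 is a zinc finger transcription factor, Lef1 and Tcf7 are DNA-binding partners of beta-catenin, and Tnfrsf19, also called TROY, is a receptor of the TNF receptor family. In the gastrulating embryo Wnt3 acts in the posterior epiblast, where the primitive streak forms.

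The promoters of Sp5, Dkk1 and Tnfrsf19 are shown because these genes had the widest ranges of signal over the arrays. The sequences are the 250 bases before the first annotated start, from RefSeq on GRCm38.p6, printed 5′ to 3′ along the gene. Capitals mark the TCF/LEF core motifs CTTTGAA and CTTTGAT, which were searched on both strands.
Sp5, chr2:70474673-70474922, plus strand: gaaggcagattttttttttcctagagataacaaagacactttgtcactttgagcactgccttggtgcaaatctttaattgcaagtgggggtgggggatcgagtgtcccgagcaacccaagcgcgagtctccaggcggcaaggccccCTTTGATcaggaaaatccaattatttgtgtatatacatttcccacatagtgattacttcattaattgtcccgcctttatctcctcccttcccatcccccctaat
Dkk1, chr19:30549497-30549746, minus strand: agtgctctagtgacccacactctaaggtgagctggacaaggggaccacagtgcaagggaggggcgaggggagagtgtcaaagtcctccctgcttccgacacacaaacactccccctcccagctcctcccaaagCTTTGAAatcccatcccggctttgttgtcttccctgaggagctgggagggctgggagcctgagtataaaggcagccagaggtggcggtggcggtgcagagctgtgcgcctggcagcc
Tnfrsf19, chr14:61046856-61047105, minus strand: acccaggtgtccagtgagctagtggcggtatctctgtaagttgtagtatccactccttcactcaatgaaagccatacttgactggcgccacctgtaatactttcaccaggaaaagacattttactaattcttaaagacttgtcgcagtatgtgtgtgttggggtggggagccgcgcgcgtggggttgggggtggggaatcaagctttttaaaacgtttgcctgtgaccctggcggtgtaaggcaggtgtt
The Sp5 window holds 1 CTTTGAT, 104 bases before the start, and the Dkk1 window holds 1 CTTTGAA, 117 bases before it. The window before the first start of Tnfrsf19 holds neither, while the window before its second start holds 1 CTTTGAT on the opposite strand, 202 bases before that start. No match was found in the windows of the other 5 genes. At least 1 match in any window was thus present for 3 of the 8 genes, or 37.5%, against 8.63% of 27025 genes in the table. By window the counts were 3 of 14, against 7.48% of 32851. A match describes these letters only and is not evidence of binding.

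For 6 KO arrays the labels disagree. The arrays titled WNT3A carry array names for both cytokines, and those titled BMP4+WNT3A carry names for WNT3A alone. Id1, a direct BMP target, read 5480, 7591 and 9345 at 12, 24 and 36 h in the arrays titled WNT3A and 186, 256 and 1323 in those titled BMP4+WNT3A, which goes against the titles. So does the summed signal of 8 BMP-SMAD target genes, Id1 among them. It was 11804 to 21930 in the arrays titled WNT3A and 2201 to 4721 in those titled BMP4+WNT3A. In other KO aggregates it was 2126 to 2590 without cytokine and 11447 to 21469 with BMP4. Both labels include WNT3A, and these groups are called "titled WNT3A" and "titled BMP4+WNT3A" below. Wnt3 itself read 11.2 to 27.9 on all KO arrays and reached 83.3 at 36 h in WT aggregates without cytokine and 146 with BMP4, although the sources used here do not say which part was deleted or whether the probe set covers it. The Gapdh 3′ to 5′ ratio, a measure of RNA integrity and labelling, lay between 1.09 and 1.71 except on 3 arrays. It was 4.03 on the 24 h array of WT with WNT3A, 2.68 on the 24 h array of untreated KO and 2.30 on the 36 h array of untreated WT.

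The labelled cell type was checked with 6 primed epiblast genes, Fgf5, Otx2, Pou3f1, Dnmt3b, Foxd3 and Fgf15, all 6 of which exceeded the array median on at least 3 arrays. Their summed signal was 18822 in WT and 18671 in KO at 0 h, and its lowest value was 4770, in WT with BMP4. Markers of other cell types were summed as well. The extraembryonic endoderm list stayed between 178 and 678 and the fibroblast or feeder list between 306 and 638 on all arrays. The core pluripotency list ranged from 8437 to 15268, the neural ectoderm list from 758 to 2581 and the trophoblast list from 250 to 1767, with its highest value in WT with BMP4. The arrays hold bulk RNA, in which fewer cells of a type and less RNA per cell cannot be told apart.

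Axin2, the scaffold protein of the destruction complex, read 31.3 to 88.0 in KO aggregates without WNT3A, where the array medians were 36.8 to 41.4. The 0 h arrays and the untreated WT array at 12 h lay within this range. From 24 h on Axin2 read 274 or more in all other aggregates. At 0 h its signal, on the linear scale of the deposited values, was 67.6 in WT and 68.1 in KO. In WT aggregates without cytokine it read 61.0, 274 and 996 at 12, 24 and 36 h, with WNT3A 523, 1370 and 949, and with BMP4 380, 526 and 904. All 3 WT conditions stood within a narrow range at 36 h, while at 12 h both cytokine arrays were high and the untreated array was at its 0 h level. In KO aggregates it read 43.4, 88.0 and 55.7 without cytokine and 43.1, 31.3 and 40.8 with BMP4. With WNT3A in the label it read 380, 326 and 560 (titled WNT3A) and 407, 455 and 885 (titled BMP4+WNT3A), and these 6 arrays did not overlap with the other KO arrays. The share of all genes that separate these arrays was not counted, for Axin2 or for the genes below.

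Dkk1, the secreted inhibitor, was highest at 36 h in every condition except untreated KO. It read 47.5 in WT and 38.6 in KO at 0 h. In WT it read 44.9, 51.3 and 265 without cytokine, 61.0, 155 and 1193 with WNT3A and 89.3, 236 and 2539 with BMP4. The BMP4 array at 36 h is the highest of the series for this gene. In KO it read 35.3, 44.6 and 32.2 without cytokine and 39.9, 44.0 and 47.5 with BMP4, against 101.1, 79.3 and 505 in the arrays titled WNT3A and 88.6, 103 and 1252 in those titled BMP4+WNT3A. All KO arrays without WNT3A were thus near the 0 h values, and every KO array with WNT3A in its label was above them.

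Sp5, the zinc finger factor, had the widest range of the genes, from 15.9 to 5914, and stood below the median of the array on 9 of the 23 arrays. The starting values were 26.4 in WT and 20.8 in KO. In WT it read 27.5, 181 and 3541 without cytokine, 1098, 3641 and 5914 with WNT3A and 1024, 1924 and 2385 with BMP4. With either cytokine the signal was already high at 12 h, when the untreated array was still at its 0 h level. The untreated KO arrays read 27.3, 26.0 and 24.8, and those with BMP4 read 31.1, 20.1 and 15.9. The KO arrays with WNT3A in their label read 815, 488 and 1269 (titled WNT3A) and 1046, 2150 and 5833 (titled BMP4+WNT3A), with no overlap with the KO arrays lacking it.

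Lef1, the partner of beta-catenin, was above the array median on all 23 arrays and varied less. It read 228 in WT and 179 in KO at 0 h. In WT it read 190, 237 and 360 without cytokine, 274, 258 and 630 with WNT3A and 187, 265 and 1010 with BMP4. The WT conditions differed most at 36 h. In KO it read 128, 114 and 367 without cytokine, 168, 149 and 150 with BMP4, 189, 162 and 537 in the arrays titled WNT3A and 296, 413 and 613 in those titled BMP4+WNT3A. The untreated KO array at 36 h was as high as its WT counterpart, while the KO array with BMP4 at that time was at the level of the earlier times.

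Tnfrsf19, the TNF receptor family member, ranged from 12.6 to 2419 and exceeded the array median on 16 of the 23 arrays. Its signal was 50.6 in WT and 37.5 in KO at 0 h. In WT it read 47.8, 488 and 1978 without cytokine, 734, 1409 and 2034 with WNT3A and 787, 976 and 1468 with BMP4. In KO it read 31.6, 22.6 and 19.3 without cytokine and 23.9, 19.6 and 12.6 with BMP4, and these 6 arrays were the lowest of the series. The arrays titled WNT3A read 739, 755 and 1448 and those titled BMP4+WNT3A 787, 982 and 2419, all above every KO array without WNT3A.

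Rnf43, the ubiquitin ligase for Frizzled receptors, was dim throughout, from 16.9 to 54.6, and exceeded the array median on 5 of the 23 arrays, all of them with a cytokine. It read 29.0 in WT and 31.1 in KO at 0 h. In WT it read 26.5, 30.1 and 34.1 without cytokine, 42.5, 35.3 and 50.2 with WNT3A and 28.8, 35.3 and 34.3 with BMP4. In KO it read 24.1, 16.9 and 21 without cytokine, 29.4, 42.5 and 54.6 with BMP4, 28.2, 27.9 and 28.4 in the arrays titled WNT3A and 29.2, 37.8 and 43.4 in those titled BMP4+WNT3A. The lowest values were those of the untreated KO arrays and the highest was KO with BMP4 at 36 h.

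Nkd1, the Dishevelled-binding inhibitor, has 4 probe sets, and the brightest did not follow the others. The brightest, 1429506_at, was bright on every array, from 560 to 1152, with its lowest value in WT with BMP4 at 36 h. Probe set 1417278_a_at ranged from 25.1 to 690. It read 27.9, 54.9 and 226 in WT without cytokine, 77.2, 241 and 626 with WNT3A and 82.1, 115 and 383 with BMP4, after 47.8 at 0 h. In KO it read 26.5, 43.7 and 25.1 without cytokine, 37.0, 26.9 and 38.3 with BMP4, 78.8, 48.8 and 89.9 in the arrays titled WNT3A and 77.2, 156 and 690 in those titled BMP4+WNT3A, after 46.5 at 0 h. Pearson's r was taken on log2 values over the 23 arrays, which come from 2 lines and 4 times. Against the brightest it was 0.02 for 1417278_a_at, 0.13 for 1429507_at and 0.06 for 1440446_at. What is said of Nkd1 therefore depends on the probe set. Values given for Nkd1 with the other genes are those of the brightest, and those of 1417278_a_at follow them in a paragraph of their own.

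**Figure D1:**
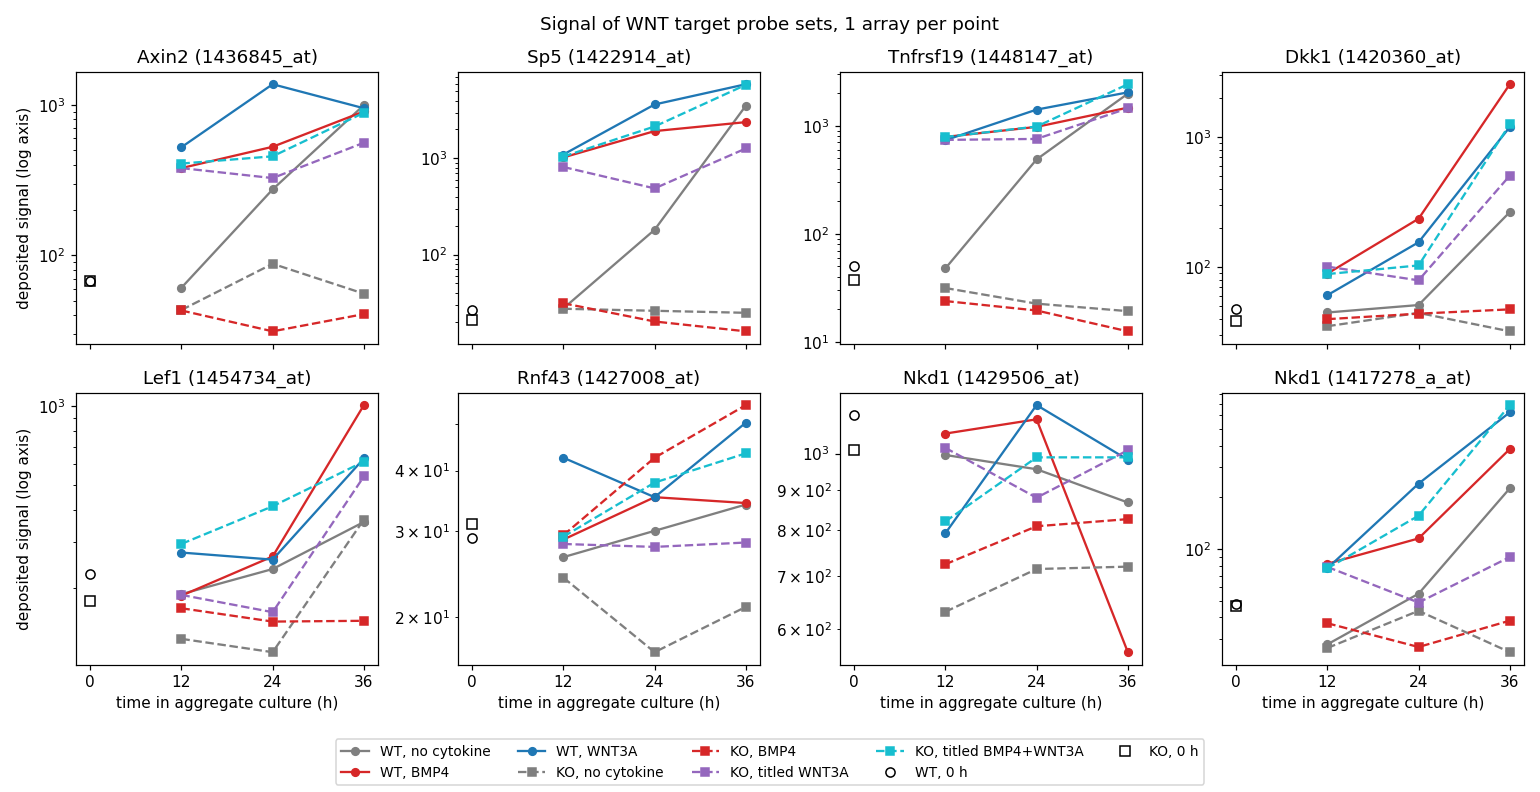
Deposited signal (log axis) of the brightest probe set of each gene, and of a second Nkd1 probe set, against hours of aggregate culture, 1 array per point, with circles for WT, squares for KO, and open symbols for 0 h. Sp5, Axin2 and Tnfrsf19 climb in untreated WT cells (grey circles), remain low in KO cells without cytokine or with BMP4 (grey and red squares), and are high in KO arrays with WNT3A in their label.

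The untreated cultures were compared first, as time courses. A linear course from 12 to 36 h was fitted per condition on quantile-normalized log2(signal + 16), a scale that understates changes of dim genes, over all 13258 genes tested with limma. Slopes are in log2 units per 12 h, ± the standard error of the model (3 arrays per course, 6 residual degrees of freedom), and the threshold was a Benjamini-Hochberg adjusted p under 0.05. In WT cells without cytokine, Sp5 rose by 3.15 ± 0.26 per 12 h (adjusted p = 4.93e-05), Tnfrsf19 by 2.41 ± 0.16 (adjusted p = 1.42e-05) and Axin2 by 1.78 ± 0.24 (adjusted p = 0.00126). Dkk1 had a slope of 1.03 ± 0.29 (adjusted p = 0.0692), Lef1 of 0.33 ± 0.18, Rnf43 of 0.09 ± 0.12 and Nkd1 of -0.18 ± 0.13, none of which passed. In all 3 of 7 genes rose and none fell, where 2.80% of all genes tested rose and 1.54% fell. The median slope was 1.03 for the 7 genes and 0.00 for all genes. Without the WT array at 36 h, whose Gapdh ratio was 2.30, Tnfrsf19 alone passed (slope 3.09, adjusted p = 0.00254).

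In KO cells without cytokine none of the 7 genes passed in either direction, where 1.42% of all genes rose and 1.58% fell. Lef1 had the largest slope, 0.64 ± 0.18 (adjusted p = 0.0742), that of Tnfrsf19 was -0.24 ± 0.16, that of Axin2 0.12, that of Nkd1 0.02, that of Sp5 -0.06 and those of Dkk1 and Rnf43 -0.07 each. The difference of the slopes, KO minus WT, was -3.21 ± 0.37 for Sp5 (adjusted p = 0.00377) and -2.65 ± 0.23 for Tnfrsf19 (adjusted p = 0.000277), and both passed as lower. That of Axin2 was -1.67 ± 0.33 (adjusted p = 0.0736) and that of Dkk1 -1.10 ± 0.40 (adjusted p = 0.413). Lef1 was at 0.30 ± 0.25, Nkd1 at 0.20 ± 0.18 and Rnf43 at -0.16 ± 0.16. Over all genes 0.173% were lower in this comparison and 0.0226% higher. Without the WT array at 36 h Tnfrsf19 alone passed (-3.32, adjusted p = 0.00656). In a fit of only the arrays compared neither passed (Sp5 adjusted p = 0.0766, Tnfrsf19 adjusted p = 0.0725). The summed signal of 7 primitive streak genes, Mixl1, Eomes, Fgf8, Evx1, Gsc, Lhx1 and Mesp1, all with a probe set, moved in the same arrays. It was 208 in WT and 219 in KO at 0 h, 231 to 4118 in untreated WT aggregates and 177 to 227 in untreated KO aggregates, and its part in the slopes was not tested.

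**Figure D2:**
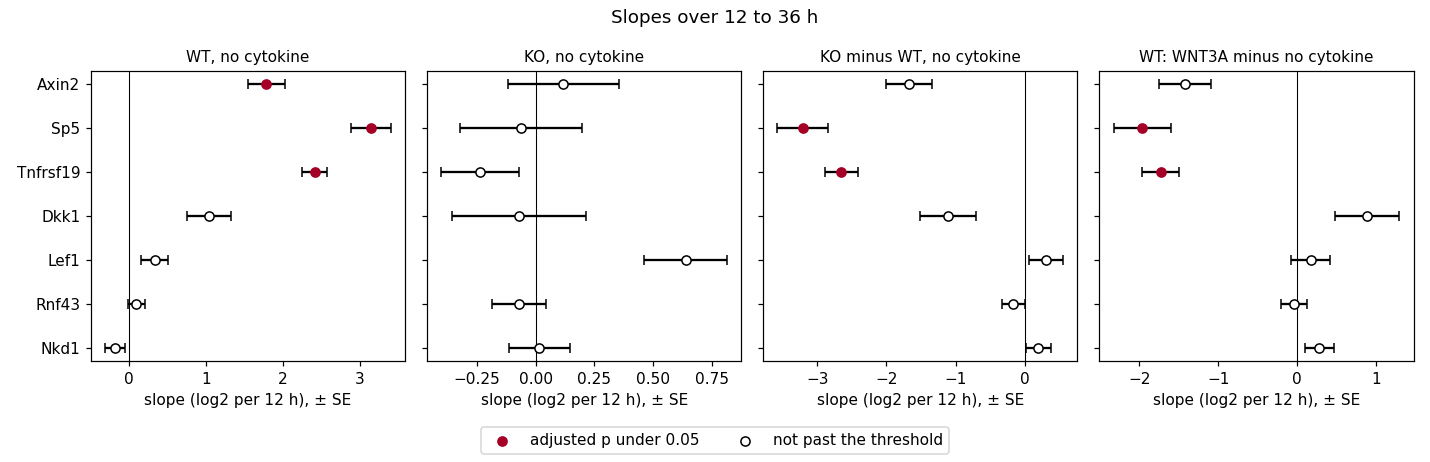
Slopes over 12 to 36 h in log2 units per 12 h with the standard error of the model, for 7 genes, in WT and KO cells without cytokine and as differences of slopes; each panel has its own horizontal range and filled points have an adjusted p under 0.05. Sp5, Tnfrsf19 and Axin2 have slopes of 1.78 to 3.15 in WT and of -0.24 to 0.12 in KO.

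As means over the 3 times, the untreated KO cells were not called different from untreated WT cells in any of the 7 genes by limma, where 0.0377% of all genes were called higher and 0.0754% lower. All 7 differences were negative. They were -3.30 ± 0.65 for Tnfrsf19 (adjusted p = 0.0590), -2.88 ± 0.85 for Sp5, -1.86 ± 0.48 for Axin2, -0.96 ± 0.68 for Dkk1, -0.49 ± 0.31 for Lef1, -0.44 ± 0.21 for Nkd1 and -0.34 ± 0.14 for Rnf43, with a median of -0.96 against 0.00 for all genes. By time, KO minus WT for Tnfrsf19 was -0.43, -3.74 and -5.74 at 12, 24 and 36 h, and for Sp5 it was 0.00, -2.23 and -6.41. For both genes the lines were close at 12 h and far apart at 36 h. Lef1 had another order, with -0.53, -1.004 and 0.08, and so had Nkd1, with -0.61, -0.51 and -0.21. Without the 12 h arrays Tnfrsf19 passed (-4.74, adjusted p = 0.00189). At 0 h there was 1 array per line and no test was possible.

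The next question was what each cytokine changed in WT cells. From here on, differences are means over the 3 times on the same log2 scale, ± the standard error of a model of 21 arrays with 7 conditions and time as a block. Any change of a difference between the times enters this error. At 12 h the difference between WNT3A and no cytokine was 4.66 for Sp5, whose untreated signal was then below the array median, 2.75 for Axin2 and 3.50 for Tnfrsf19. At 24 h the differences were 4.25, 2.24 and 1.46. At 36 h, when the untreated array was high as well, they were 0.75, -0.09 and 0.04. Dkk1, the secreted inhibitor, had the opposite order, with 0.31, 1.36 and 2.08. Averaged over the times, none of the 7 genes passed: Sp5 was at 3.22 ± 0.85 (adjusted p = 0.114), Axin2 at 1.64 ± 0.48 (adjusted p = 0.152), Tnfrsf19 at 1.66 ± 0.65, Dkk1 at 1.25 ± 0.68, Lef1 at 0.42 ± 0.31, Rnf43 at 0.33 ± 0.14 and Nkd1 at 0.00 ± 0.21. Of all genes 0.272% were called higher and 0.272% lower, and 1851 had an unadjusted p under 0.05. Without the untreated WT array at 36 h, Sp5 (4.71, adjusted p = 0.00144), Axin2 (2.39, adjusted p = 0.00656) and Tnfrsf19 (2.61, adjusted p = 0.0356) passed. Without all 36 h arrays Sp5 (4.46, adjusted p = 0.00284) and Axin2 (2.50, adjusted p = 0.0125) passed.

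The difference in course was tested directly, as the slope with WNT3A minus the slope without cytokine. It was -1.96 ± 0.37 log2 units per 12 h for Sp5 (adjusted p = 0.0415) and -1.73 ± 0.23 for Tnfrsf19 (adjusted p = 0.0104), so the rise in untreated cells was steeper for both. Axin2 was at -1.42 ± 0.33 (adjusted p = 0.0977) and Dkk1 at 0.89 ± 0.40 (adjusted p = 0.480). Nkd1 was at 0.28 ± 0.18, Lef1 at 0.17 ± 0.25 and Rnf43 at -0.04 ± 0.16. Of all genes 0.362% were lower and 0.211% higher in this test. The call for Sp5 was lost under several settings, among them leaving out the untreated KO array at 24 h (adjusted p = 0.0597), and neither gene passed without the untreated WT array at 36 h.

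BMP4 in WT cells gave the same order of events for Sp5, Axin2 and Tnfrsf19. At 12 h the differences from the untreated array were 4.69, 2.48 and 3.74. At 24 h they were 3.35, 0.96 and 1.01, and at 36 h -0.64, -0.17 and -0.44. For Dkk1 the difference was 0.81 at 12 h, 1.93 at 24 h and 3.20 at 36 h, and for Lef1 it was 0.05, 0.17 and 1.42. Averaged over the times none of the 7 genes passed, with Sp5 at 2.47 ± 0.85 (adjusted p = 0.137), Dkk1 at 1.98 ± 0.68 (adjusted p = 0.135), Tnfrsf19 at 1.44 ± 0.65, Axin2 at 1.09 ± 0.48, Lef1 at 0.55 ± 0.31, Rnf43 at 0.06 ± 0.14 and Nkd1 at -0.09 ± 0.21. Of all genes 1.45% were called higher and 2.02% lower, and 2261 had an unadjusted p under 0.05. Without the untreated WT array at 36 h, Sp5 (3.96, adjusted p = 0.00176), Axin2 (1.85, adjusted p = 0.0189) and Tnfrsf19 (2.39, adjusted p = 0.0366) passed. Without all 36 h arrays Sp5 (4.02, adjusted p = 0.00255) and Dkk1 (1.37, adjusted p = 0.0392) passed. The WNT3A and BMP4 comparisons share the untreated WT arrays.

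In KO cells with BMP4, the signals of Axin2, Sp5, Tnfrsf19 and Dkk1 lay between 12.6 and 47.5, Lef1 and the brightest Nkd1 probe set were above the array median throughout, and Rnf43 was higher than in untreated KO cells at each time. Against untreated KO cells the differences were -0.53 ± 0.48 for Axin2, -0.17 ± 0.85 for Sp5, -0.25 ± 0.65 for Tnfrsf19, -0.19 ± 0.31 for Lef1, 0.13 ± 0.68 for Dkk1 and 0.18 ± 0.21 for Nkd1. Rnf43 had the largest, 0.61 ± 0.14 (adjusted p = 0.0533), with 0.14, 0.80 and 0.90 at 12, 24 and 36 h. None of the 7 genes passed, where 0.249% of all genes were called higher and 0.324% lower, and 1421 had an unadjusted p under 0.05. The BMP4 stimulus itself was read in these cells: Id1 stood at 5557, 8192 and 10156 with BMP4, against 145, 177 and 224 without.

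The comparison of KO with WT under BMP4 asked how the genes differed between the lines when both received this cytokine. KO minus WT was -5.52 ± 0.85 for Sp5 (adjusted p = 0.00103), -4.99 ± 0.65 for Tnfrsf19 (adjusted p = 0.000289), -3.49 ± 0.48 for Axin2 (adjusted p = 0.000415), -2.81 ± 0.68 for Dkk1 (adjusted p = 0.0196) and -1.23 ± 0.31 for Lef1 (adjusted p = 0.0232). For each of these 5 genes the 3 KO values lay below all 3 WT values. These 5 are the called genes, and the share of all genes separated in this way was not counted. Nkd1 was at -0.17 ± 0.21 and Rnf43 at 0.21 ± 0.14, and neither passed. In all 5 of 7 genes were lower and none was higher, where 2.96% of all genes were lower and 4.32% higher. The median difference was -2.81 for the 7 genes and -0.01 for all genes. For Dkk1 the gap widened from -0.996 at 12 h to -2.14 and -5.29 at 24 and 36 h, and for Lef1 from -0.23 to -0.84 and -2.62. Dkk1 and Lef1 did not pass with only the arrays compared, without the 6 KO arrays of conflicting labels or with no time block, and Lef1 did not without the 36 h arrays. No gene passed without the 24 h arrays (Axin2 -3.43, adjusted p = 0.0967), a fit that leaves 2 times. The summed primitive streak signal was 1974 to 11849 in WT with BMP4 and 193 to 239 in KO with BMP4, and its part in these differences was not tested.

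Whether the response to BMP4 differed between the lines was tested as a difference of differences, KO minus WT. No gene of the 13258 passed (0% higher and 0% lower, smallest adjusted p = 0.0530), and 783 had an unadjusted p under 0.05. For 5 of the 7 genes described here the value was negative, at -2.64 ± 1.21 for Sp5, -1.85 ± 0.97 for Dkk1, -1.69 ± 0.92 for Tnfrsf19, -1.63 ± 0.68 for Axin2 and -0.74 ± 0.44 for Lef1. It was positive for Rnf43, at 0.55 ± 0.19 (adjusted p = 0.682, the smallest of the 7), and for Nkd1, at 0.27 ± 0.29. Averaged over the times, the lower levels in KO under BMP4 are therefore not shown to exceed those without cytokine. The mean joins unlike times. At 12 h KO minus WT was -4.62 under BMP4 and 0.00 without cytokine for Sp5. It was -4.49 and -0.43 for Tnfrsf19, and -2.93 and -0.38 for Axin2. At 36 h the values were -6.14 and -6.41 for Sp5, -5.60 and -5.74 for Tnfrsf19, and -3.92 and -3.71 for Axin2. Single times have 1 array per group, and the difference at each time was not tested.

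**Figure D3:**
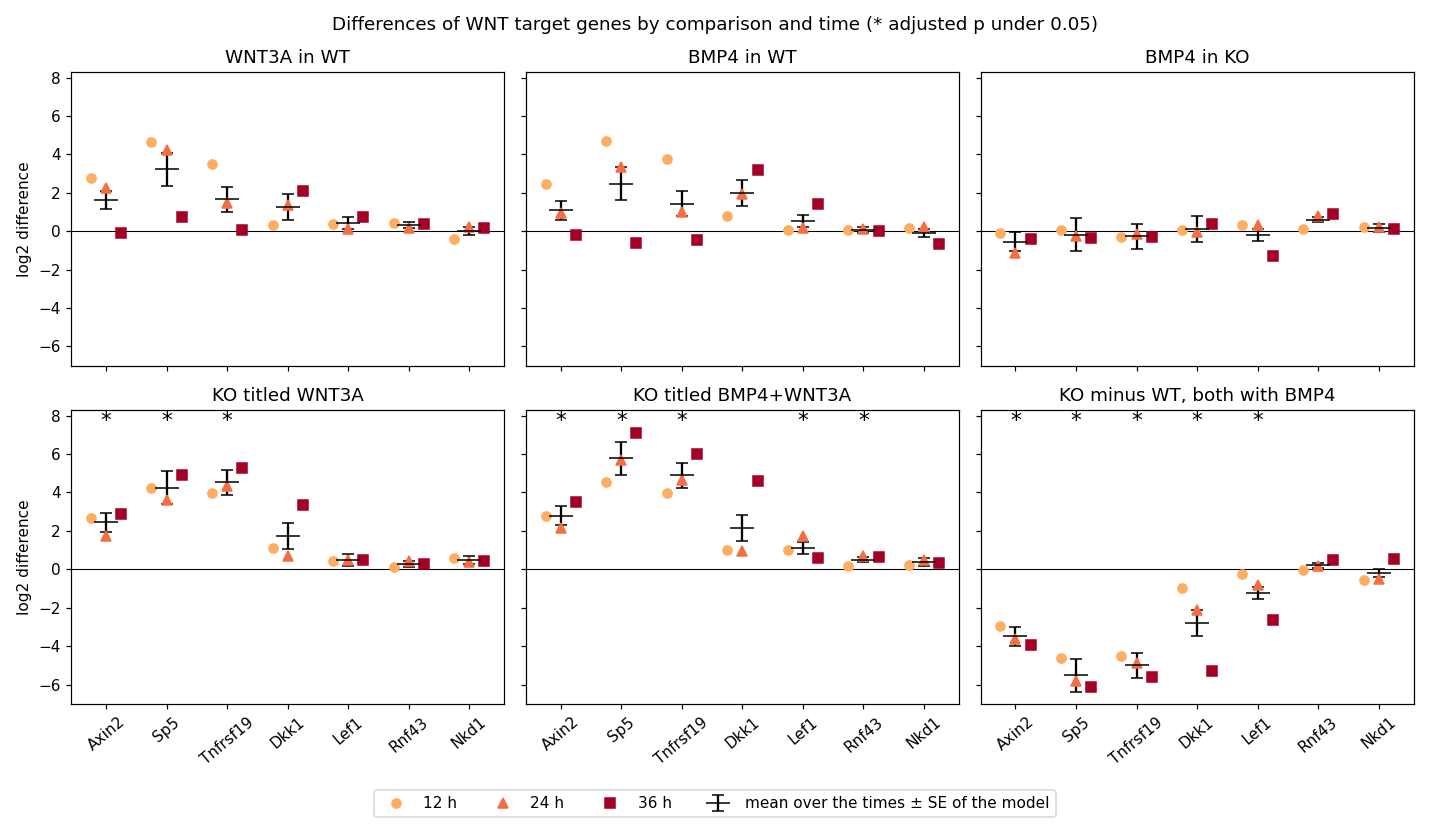
Differences on the log2(signal + 16) scale at 12, 24 and 36 h (coloured points), with their mean and the standard error of the model (black), in 6 comparisons; an asterisk marks an adjusted p under 0.05. In WT cells the differences of Sp5, Axin2 and Tnfrsf19 shrink toward 36 h, in KO cells titled with WNT3A they do not, and under BMP4 5 genes are lower in KO.

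WNT3A was then given to KO cells, which lack their own Wnt3. In the arrays titled WNT3A, Tnfrsf19 was higher than in untreated KO cells by 4.53 ± 0.65 (adjusted p = 0.000430), Sp5 by 4.24 ± 0.85 (adjusted p = 0.00480) and Axin2 by 2.44 ± 0.48 (adjusted p = 0.00424). By time the difference was 4.25, 3.59 and 4.90 for Sp5 at 12, 24 and 36 h and 3.96, 4.33 and 5.30 for Tnfrsf19, whose untreated KO signals, like those of Sp5, lay below the array median at all 3 times and have no detection calls, so no fold is given. Dkk1 was at 1.72 ± 0.68 (adjusted p = 0.135), Lef1 at 0.47 ± 0.31, Nkd1 at 0.46 ± 0.21 and Rnf43 at 0.27 ± 0.14. In all 3 of 7 genes rose and none fell, where 4.03% of all genes rose and 5.53% fell. The median difference was 1.72 for the 7 genes and -0.01 for all genes.

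In the arrays titled BMP4+WNT3A, Sp5 was higher by 5.79 ± 0.85 (adjusted p = 0.000748), Tnfrsf19 by 4.89 ± 0.65 (adjusted p = 0.000394), Axin2 by 2.80 ± 0.48 (adjusted p = 0.00232), Lef1 by 1.09 ± 0.31 (adjusted p = 0.0430) and Rnf43 by 0.50 ± 0.14 (adjusted p = 0.0372). By time the difference was 4.56, 5.68 and 7.12 for Sp5 at 12, 24 and 36 h, and 4.0, 4.67 and 6.01 for Tnfrsf19. Dkk1 was at 2.16 ± 0.68 (adjusted p = 0.0732), with 0.98, 0.93 and 4.57 at the 3 times, and Nkd1 at 0.36 ± 0.21 (adjusted p = 0.350). In all 5 of 7 genes rose and none fell, where 3.04% of all genes rose and 3.79% fell, and the median difference was 2.16 against -0.02 for all genes. Of the 5, Rnf43 was dim, and its untreated KO signals, like those of Sp5 and Tnfrsf19, lay below the array median at the 3 times. In the arrays titled BMP4+WNT3A, Rnf43 also lay below the array median at 12 and 24 h (29.2 and 37.8, where the medians were 37.8 and 39.9). It passed the filter on dim genes only through arrays with a cytokine. Lef1 and Rnf43 did not pass without the untreated KO array at 24 h, without the 3 arrays of high Gapdh ratio, with an offset of 64, with only the arrays compared or with no time block, when 3 genes passed. Without the 24 h arrays no gene passed in either KO comparison with WNT3A in its title, with Tnfrsf19 at 4.63 (adjusted p = 0.0743) and 5.0 (adjusted p = 0.127). With the labels of the 6 arrays exchanged, the 5 genes belong to WNT3A alone and the 3 to both cytokines. These comparisons share the untreated KO arrays. The summed primitive streak signal was 1822 to 4774 in the arrays titled WNT3A and 1556 to 3402 in those titled BMP4+WNT3A, and its part was not tested.

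The arrays with WNT3A in their label were also compared with each other and with WT. Titled BMP4+WNT3A minus titled WNT3A was 1.54 ± 0.85 for Sp5 (adjusted p = 0.783), 0.63 ± 0.31 for Lef1, 0.44 ± 0.68 for Dkk1, 0.36 ± 0.65 for Tnfrsf19, 0.36 ± 0.48 for Axin2, 0.23 ± 0.14 for Rnf43 and -0.11 ± 0.21 for Nkd1. None of the 7 genes passed, where 0.143% of all genes were higher and 0.196% lower, and 978 had an unadjusted p under 0.05. The signs of the 7 genes turn with the labels exchanged. Of the 8 BMP-SMAD target genes, 7 were lower and 0 higher in this comparison by title. The response to WNT3A in KO (titled WNT3A) minus that in WT was 2.86 ± 0.92 for Tnfrsf19 (adjusted p = 0.268), 1.02 ± 1.21 for Sp5, 0.81 ± 0.68 for Axin2, 0.47 ± 0.97 for Dkk1, 0.46 ± 0.29 for Nkd1, 0.04 ± 0.44 for Lef1 and -0.06 ± 0.19 for Rnf43. With the labels exchanged it was 3.23 for Tnfrsf19, 2.57 for Sp5 and 1.16 for Axin2. Without the 36 h arrays the sign turned for Sp5 (-0.54) and Axin2 (-0.28), and without the 3 arrays of high Gapdh ratio Sp5 was at -0.31. None passed in the fit of all 21 arrays, where 0.0302% of all genes were higher and 0.0377% lower, and 1420 had an unadjusted p under 0.05.

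The second probe sets were tested in a fit of all 21769 probe sets that passed the filter, 13 of the 15 among them. For Nkd1, 1417278_a_at was higher in KO titled BMP4+WNT3A by 2.18 ± 0.49 (adjusted p = 0.0153), lower in KO than in WT under BMP4 by -1.80 ± 0.49 (adjusted p = 0.0399), and rose in untreated WT cells by 1.17 ± 0.20 per 12 h (adjusted p = 0.00891). It did not pass with WNT3A in WT (1.43 ± 0.49, adjusted p = 0.235), with BMP4 in WT (0.93 ± 0.49) or KO (0.05 ± 0.49), in KO titled WNT3A (0.87 ± 0.49), in untreated KO against WT (-0.93 ± 0.49) or in titled BMP4+WNT3A minus titled WNT3A (1.31 ± 0.49, adjusted p = 0.605). The same held for the genotype difference of the BMP4 response (-0.87 ± 0.69), that of the WNT3A response (-0.56 ± 0.69), the untreated KO course (-0.04 ± 0.20), the difference of the untreated courses (-1.21 ± 0.28, adjusted p = 0.203) and the WNT3A course against the untreated one in WT (0.14 ± 0.28). The brightest Nkd1 probe set passed in none of the comparisons. Probe set 1440446_at passed in KO titled BMP4+WNT3A at 0.72 ± 0.18 (adjusted p = 0.0274), and 1429507_at in none of the comparisons named in this paragraph. With WNT3A in WT 1440446_at was at 0.33 and 1429507_at at 0.56, where the brightest was at 0.00. In KO against WT under BMP4 they were at -0.38 and -0.49, where the brightest was at -0.17. With BMP4 in WT they were at -0.04 and 0.24. None of these values passed. Tnfrsf19 probe set 1425212_a_at, from 82.1 to 347, followed the brightest one (r = 0.85 over 23 arrays) with smaller differences. It was higher by 1.14 ± 0.22 (adjusted p = 0.00473) in KO titled WNT3A and by 1.19 ± 0.22 (adjusted p = 0.00487) in KO titled BMP4+WNT3A, and lower in KO under BMP4 by -1.44 ± 0.22 (adjusted p = 0.00116). In untreated WT cells it rose by 0.53 ± 0.12 per 12 h (adjusted p = 0.0307). It did not pass for the difference of the untreated courses (-0.77 ± 0.16, adjusted p = 0.152). Nor did it for the WNT3A course against the untreated one in WT (-0.71 ± 0.16, adjusted p = 0.118). Lef1 probe set 1421299_a_at ranged from 73.5 to 139 and differed by -0.27 to 0.20 in the comparisons of means, none past the threshold. Dkk1 probe set 1458232_at followed the brightest one (r = 0.93) and passed in none of these comparisons. It was dim, with a median signal of 6.92, and exceeded the array median on 3 of the 23 arrays. With BMP4 in WT at 12 h it differed by -0.28, where the brightest differed by 0.81. Axin2 probe set 1421341_at and Tnfrsf19 probe set 1415921_a_at never exceeded the array median, with highest signals of 10.1 and 31.1.

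**Figure D4:**
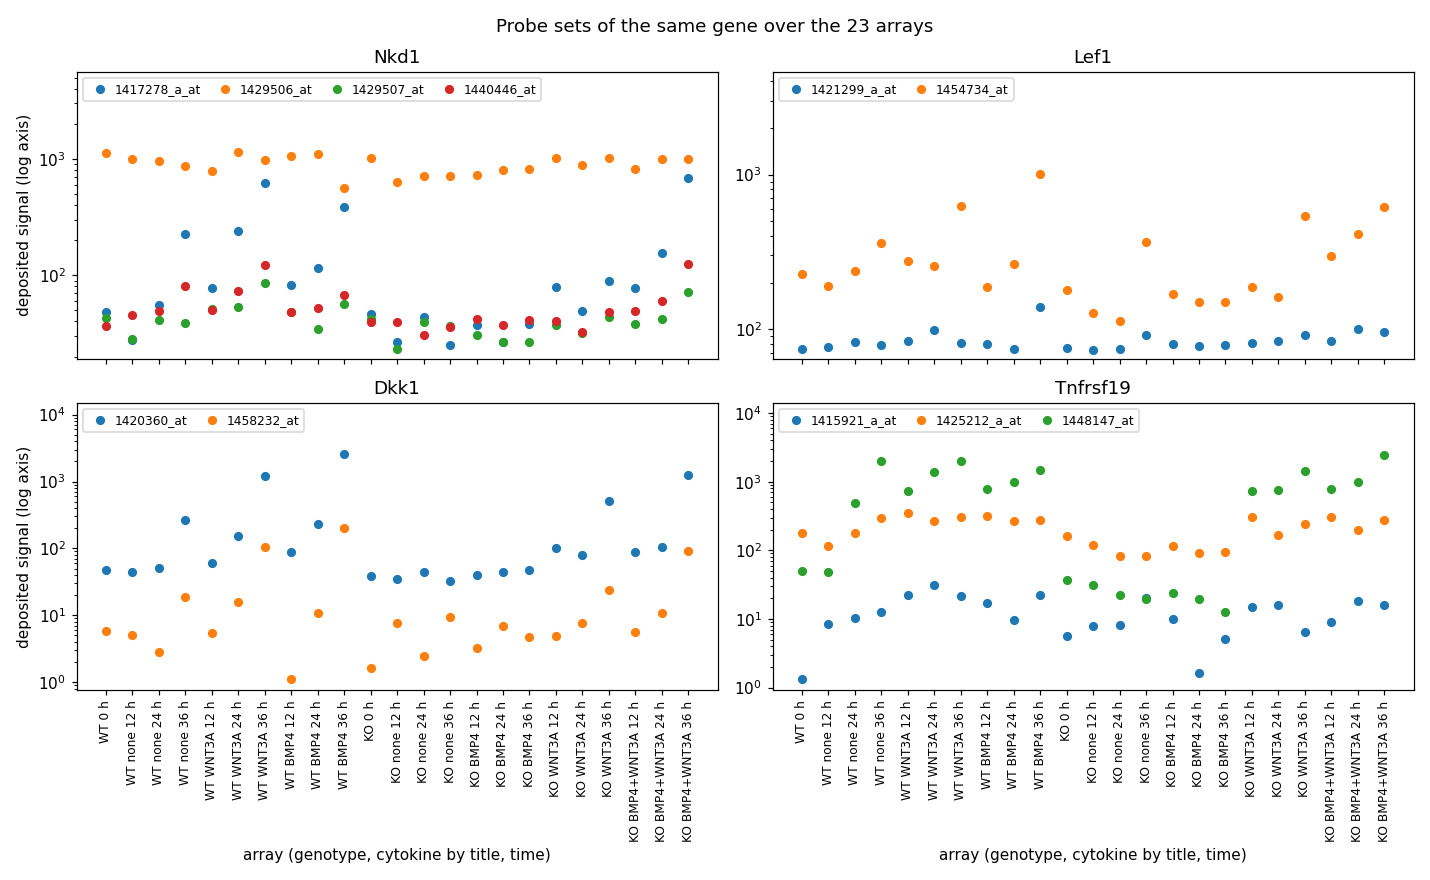
Deposited signal (log axis) of every probe set of Nkd1, Lef1, Dkk1 and Tnfrsf19 on the 23 arrays, 1 point per array, ordered by line, cytokine of the title and time. Nkd1 1429506_at stays between 560 and 1152 while 1417278_a_at ranges from 25.1 to 690, and Lef1 1421299_a_at stays between 73.5 and 139.

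The other genes of the pathway were read from 7 lists with 95 genes: further targets and feedback genes, ligands, receptors, secretion genes with R-spondins, secreted antagonists, the beta-catenin complex and nuclear factors. Of these 73 were tested. WNT3A in WT raised 2, the ligand gene Wnt5b by 2.34 ± 0.43 (adjusted p = 0.0264) and the ligand carrier Wls by 0.87 ± 0.15, and lowered 1, the receptor gene Fzd7, at -1.12 ± 0.22. Over all genes WNT3A in WT gave 0.272% higher and 0.272% lower. BMP4 in WT raised 8 and lowered 6, with Wnt5b at 2.05 ± 0.43, Wls at 1.86 ± 0.15 and Porcn, which encodes the acyltransferase that lipidates WNT proteins, at 1.34 ± 0.34 as the largest. In KO, BMP4 raised 1, Ascl2 by 0.88, and lowered 1, Ror1 at -1.46. Over all genes BMP4 likewise gave more calls in WT, 1.45% higher and 2.02% lower, than in KO, 0.249% and 0.324%, and nothing particular to the pathway is read from its counts.

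In KO titled WNT3A 11 of the 73 rose and 6 fell, with the ligand gene Wnt8a at 4.05 ± 0.60, the R-spondin gene Rspo3 at 3.08 ± 0.82 and Wnt5b at 3.00 ± 0.43 as the largest. In KO titled BMP4+WNT3A 9 rose and 3 fell, with Wnt8a at 5.02 ± 0.60, Wnt5b at 3.76 ± 0.43 and the homeobox gene Cdx1 at 3.62 ± 0.75 as the largest. Under BMP4, KO cells had 14 of the 73 lower and 7 higher than WT, with Wnt8a at -4.72 ± 0.60, Wnt5b at -3.89 ± 0.43 and Rspo3 at -3.39 ± 0.82. In untreated WT cells 10 rose over time and 3 fell, led by Frzb, a secreted antagonist, at 2.26 ± 0.28 per 12 h and Wnt8a at 2.03 ± 0.13. In untreated KO cells 3 rose and 1 fell, with Wls at 0.94 ± 0.11. Wnt8a was the 1 pathway gene past the threshold for the difference of these courses (-2.32 ± 0.18, adjusted p = 0.000195). Over all genes 4.03% rose and 5.53% fell in KO titled WNT3A, and 3.04% and 3.79% in KO titled BMP4+WNT3A. Under BMP4, 2.96% of all genes were lower in KO and 4.32% higher. In untreated WT cells 2.80% of all genes rose and 1.54% fell, and in untreated KO cells 1.42% and 1.58%. For the difference of these courses 0.173% were lower and 0.0226% higher. The medians of the 73 genes in all comparisons lay between -0.07 and 0.04.

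Likeness of profiles was measured as Pearson's r of log2 values over the 23 arrays and is given without a test, since the arrays share lines, times and cytokines. Axin2, Sp5 and Tnfrsf19 were alike, with r of 0.97 to 0.98 for each pair. Dkk1 stood closest to Lef1 (0.84), and its r with these 3 genes was 0.74 to 0.77. Rnf43 had r of 0.08 to 0.38 with the other genes and the brightest Nkd1 probe set -0.16 to 0.20. The genes most like the mean profile were Wnt5b (0.96), Fst, which encodes follistatin (0.95), Rtl8c (0.93), Hes1 (0.93) and Plcl2 (0.93). Rtl8c was also most like Sp5 (0.98), Tnfrsf19 (0.98) and Axin2 (0.97). Pcdh7 (0.97), Rspo3 (0.96) and Cdh2 (0.95) were most like Dkk1, and Rhob, Cyp26a1 and Snai1 (0.86 each) were most like Lef1. The highest r reached for Rnf43 was 0.635, with Gng11.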

How the data were processed

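The deposited values of the 23 arrays are intensity on a linear scale, with a value for each probe set. The sources used here do not give the method by which the authors made them. There are no detection calls, and 2.93% of values stand at a floor of 1. Array medians were 36.8 to 41.4 and upper quartiles 226 to 292, a spread of 0.17 and 0.37 in log2, so log2(value + 16) of the deposited intensity was quantile normalized. The number of arrays limits the precision. In the platform annotation 34958 of the 45101 probe sets have 1 gene symbol, 932 have several and 9211 have none. Of the first, 34754 were matched to RefSeq (GRCm38.p6) by gene identifier, and 18194 genes are named. The probe set of highest mean stood for each gene, and the 13258 genes above the array median on at least 3 arrays were tested.

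Groups follow the sample titles. Means over the 3 times were compared in limma 3.58.1 under R 4.3.3 with eBayes and a variance trend along the mean signal, over 21 arrays with 7 conditions and time as an additive block (12 residual degrees of freedom). Slopes came from a linear course per condition (6 residual degrees of freedom). All p-values are from limma, two-sided and Benjamini-Hochberg adjusted over all genes (in the probe set fit, over all probe sets). They measure only the spread between these arrays, which may be technical in part. Arrays at 0 h entered no test.

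The genes and lists were chosen with earlier results of these data known. The rule named the listed genes in every comparison with all their probe sets (those other than the brightest are given in part), up to 3 called genes of the pathway lists with the largest differences, and those with the highest r. The alternatives concerned the scaling (as deposited, or centred on the array median), the offset (1 or 64), the filter (none, or the 60th percentile), the probe sets (averaged per gene, or tested singly), the variance trend, array weights, the time block and the arrays fitted (only those compared, each time left out, the 6 KO arrays of conflicting labels left out or exchanged, and the 3 arrays with a high Gapdh ratio left out). Leaving out each of those 3 alone was added after seeing the data. The limma steps were tested on simulated data. Figures were drawn with matplotlib 3.10.9 from Python 3.11.15.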

Additional observations from a re-analysis of the deposited data

Results flagged for a closer look

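The course of 2 genes, each read by its brightest probe set, differed between the lines by a test of the difference itself. In aggregates without cytokine the slope of Sp5 in KO minus that in WT was -3.21 log2 units per 12 h (limma, adjusted p = 0.00377), and that of Tnfrsf19 was -2.65 (adjusted p = 0.000277). Tnfrsf19 probe set 1425212_a_at was at -0.77 and did not pass (limma over all probe sets, adjusted p = 0.152). The signal of both genes was higher at each later time from 12 to 36 h in WT. In KO it was lower at each later time, but below the array median throughout. The KO slopes were -0.06 for Sp5 (limma, adjusted p = 0.924) and -0.24 for Tnfrsf19 (adjusted p = 0.446), neither past the threshold. Each course rests on 3 arrays, and each genotype is 1 line. Without the untreated WT array at 36 h Tnfrsf19 passed (-3.32, adjusted p = 0.00656) and Sp5 did not. In a fit of only the arrays compared neither passed (Sp5 adjusted p = 0.0766, Tnfrsf19 adjusted p = 0.0725).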

How the results depend on the processing

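The calls were most sensitive to the choice of arrays. The number of the 7 genes past the threshold changed as follows, and the cause was not tested. With an offset of 64 it was 3 for KO titled BMP4+WNT3A and 1 for the WNT3A course against the untreated course in WT, which also had 1 with no filter, with the mean of probe sets, with each probe set by itself, with no variance trend and with only the arrays compared. BMP4 in KO had 1 with the mean of probe sets and with no variance trend (Rnf43), and BMP4 in WT had 1 with array weights. With only the arrays compared it was 5 for KO titled WNT3A, 3 for KO titled BMP4+WNT3A, 3 for Wnt3 loss under BMP4 and 0 for the difference of the untreated courses (Sp5 -3.21, adjusted p = 0.0766, and Tnfrsf19 -2.65, adjusted p = 0.0725, in limma). Without the 6 KO arrays of conflicting labels it was 3 for Wnt3 loss under BMP4. Without the 3 arrays of high Gapdh ratio it was 1 for WNT3A in WT, 2 for BMP4 in WT and 3 for KO titled BMP4+WNT3A. With exchanged labels it was 5 for KO titled WNT3A and 3 for KO titled BMP4+WNT3A. With no time block, so that arrays of the same time were no longer paired, it was 3 for KO titled BMP4+WNT3A and 3 for Wnt3 loss under BMP4. Leaving out each time, or each array of high Gapdh ratio alone, gave 0 to 3 genes for WNT3A in WT, 0 to 3 for BMP4 in WT, 0 to 3 for KO titled WNT3A, 0 to 5 for KO titled BMP4+WNT3A, 0 to 5 for Wnt3 loss under BMP4, 0 to 1 for Wnt3 loss without cytokine, 1 to 4 for the untreated WT course, 1 to 3 for the difference of the untreated courses and 0 to 3 for the WNT3A course. The slopes were not refitted without a time or without the time block.

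Of 1757 single-gene values 1633 kept direction and call, 55 lost and 31 gained the call, and 38 changed sign, of which 0 had passed in either fit. With exchanged labels, titled BMP4+WNT3A minus titled WNT3A became -1.54 for Sp5, -0.63 for Lef1, -0.44 for Dkk1, -0.36 for Tnfrsf19, -0.36 for Axin2, -0.23 for Rnf43 and 0.11 for Nkd1, and the genotype difference of the WNT3A response became 0.17 for Rnf43. With the mean of probe sets, Nkd1 became 0.58 for WNT3A in WT, 0.26 for BMP4 in WT, 0.52 for titled BMP4+WNT3A minus titled WNT3A, 0.35 for the WT course, -0.33 for the difference of courses, -0.22 for the genotype difference of the BMP4 response and -0.19 for that of the WNT3A response, where Dkk1 became -0.045. With array weights, BMP4 in KO became -0.14 for Dkk1 and 0.060 for Lef1, BMP4 in WT 0.11 for Nkd1, and the genotype difference of the WNT3A response -0.041 for Dkk1. Nkd1 with WNT3A in WT became 0.040 as deposited and 0.021 with median centring. Dropping the 3 arrays of high Gapdh ratio turned the genotype difference of the WNT3A response to -0.31 for Sp5 and -0.052 for Lef1, and the WNT3A course to -0.11 for Lef1. With times or single arrays left out, values ran for Nkd1 from -0.12 to 0.20 for WNT3A in WT, -0.25 to 0.19 for BMP4 in WT, -0.54 to 0.015 for Wnt3 loss under BMP4 and -0.23 to 0.022 for titled BMP4+WNT3A minus titled WNT3A. For Lef1 they ran from -0.47 to 0.35 for BMP4 in KO, -1.27 to 0.24 for the genotype difference of the BMP4 response, -0.12 to 0.19 for that of the WNT3A response, -0.082 to 0.30 for the difference of courses and -0.22 to 0.17 for the WNT3A course. The genotype difference of the WNT3A response ran from -0.28 to 1.46 for Axin2, -0.54 to 1.87 for Sp5 and -0.22 to 0.075 for Rnf43.

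Over all genes the counts ran across the settings from 0 to 270 for WNT3A in WT (72 as reported), 12 to 664 for BMP4 in WT (460), 0 to 353 for BMP4 in KO (76), 105 to 2438 for KO titled WNT3A (1267), 4 to 2016 for KO titled BMP4+WNT3A (906), 7 to 1451 for Wnt3 loss under BMP4 (965), 0 to 21 for Wnt3 loss without cytokine (15), 1 to 216 for titled BMP4+WNT3A minus titled WNT3A (45), 0 to 29 for the genotype difference of the BMP4 response (0), 0 to 26 for that of the WNT3A response (9), 12 to 887 for the WT course (575), 27 to 744 for the KO course (398), 2 to 48 for the difference of courses (26) and 0 to 128 for the WNT3A course (76). The dim signal of Rnf43 limits what its values can show.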
